A study of Mus musculus with 6 samples.

Results

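Cholesterol synthesis and its control by the sterol regulatory element-binding proteins (SREBPs) were examined through 8 listed genes in RVP3 cells, a murine tumour line of C57BL/6 background. The genes are Hmgcs1, Idi1, Fdps, Sqle, Cyp51, Dhcr7 and Hsd17b7, which encode enzymes of the pathway, and Insig1, which encodes a brake on it. Members were taken as all probes annotated with one of these symbols among the 15131 probes with deposited log2 values, from Illumina Mouse WG-6 bead arrays. This gave 11 probes for 6 of the 8 genes, among 16760 probes and 8734 named genes tested. None of those 15131 probes carried the symbol Hmgcs1 or Idi1, so both were not analysed here. Other probes of the array were not named, so it may still hold probes for these genes.

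The series holds 6 samples of total RNA. In 3 of them the cells had been treated with DAC/TSA, and the other 3 were untreated control cells. For DAC/TSA, cells were kept in fresh medium for 24 h, then in 3 µM of the DNA methyltransferase inhibitor DAC (5-aza-2′-deoxycytidine) for 48 h, with a change of medium and drug, and then in 30 ng/ml of the histone deacetylase inhibitor TSA (trichostatin A) for 24 h. The design calls the samples of a group biological triplicates. They are cultures of 1 line, so p-values measure only the spread between these cultures, and every treated culture received both drugs, so the effects of DAC and TSA cannot be told apart. The methods describe no solvent, later medium change or total culture time for the control cells. Whether these differed between the groups is therefore not known. Bulk RNA was measured, so a change in the number of cells of a kind and a change in RNA per cell cannot be told apart.

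Cholesterol is built from acetyl-CoA through mevalonate, farnesyl diphosphate, squalene and lanosterol. When sterols in the endoplasmic reticulum are scarce, the escort protein Scap carries SREBP precursors to the Golgi, where the proteases Mbtps1 and Mbtps2 release the active factor, and SREBP2 (gene Srebf2) then switches on nearly the whole pathway. When sterols are plentiful, Insig1 and Insig2 hold Scap in the endoplasmic reticulum. Insig1 is itself an SREBP target and so forms part of a feedback loop.

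SREBP2 targets typically carry a sterol regulatory element near the start of transcription, often beside boxes for the factors NF-Y and Sp1. The 250 bases before the RefSeq transcription start (build GRCm38.p6) are shown for Hsd17b7, Cyp51 and Insig1, the members whose signals were higher, not called and lower after DAC/TSA in the results below. Hsd17b7 lies at chr1:169969206-169969455 on the minus strand, Cyp51 at chr5:4104698-4104947 on the minus strand and Insig1 at chr5:28071162-28071411 on the plus strand. Each sequence runs 5′ to 3′ towards the start, and capitals mark CCAAT and GGGCGG on either strand (ATTGG and CCGCCC are their reverse complements).
Hsd17b7: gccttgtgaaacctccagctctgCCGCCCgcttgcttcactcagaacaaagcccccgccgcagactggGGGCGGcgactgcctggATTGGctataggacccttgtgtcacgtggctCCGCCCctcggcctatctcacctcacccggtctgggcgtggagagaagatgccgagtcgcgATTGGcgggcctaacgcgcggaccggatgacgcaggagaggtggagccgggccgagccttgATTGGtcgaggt
Cyp51: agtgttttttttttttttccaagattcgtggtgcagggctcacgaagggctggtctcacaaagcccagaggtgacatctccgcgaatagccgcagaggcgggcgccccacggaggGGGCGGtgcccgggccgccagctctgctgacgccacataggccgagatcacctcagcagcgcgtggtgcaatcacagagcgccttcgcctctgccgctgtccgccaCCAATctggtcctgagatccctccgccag
Insig1: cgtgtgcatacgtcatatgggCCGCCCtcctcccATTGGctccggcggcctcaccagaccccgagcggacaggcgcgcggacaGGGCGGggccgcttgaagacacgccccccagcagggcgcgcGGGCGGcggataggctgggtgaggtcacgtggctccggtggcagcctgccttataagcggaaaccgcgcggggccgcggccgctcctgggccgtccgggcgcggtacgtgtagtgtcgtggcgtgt

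The Hsd17b7 window held CCAAT at 3 places and GGGCGG at 3, the Insig1 window 1 and 3, and the Cyp51 window 1 and 1. CCAAT occurred in 33.8% and GGGCGG in 32.7% of the 32851 mouse windows of this length. The sterol regulatory element was searched on both strands as TCACCCCA, found in 1.34% of windows, and as TCACNCCAC, found in 1.05%, and TCACCCCAC matches both. Neither string was found in these 3 windows or in the windows of the 3 annotated starts of Dhcr7. Other forms of the element were not searched, so a window without these strings may still hold one. Among the windows of the listed genes only that of Hmgcs1 held either motif, with a match to both that began 137 bases before the start. The windows of Hsd17b7, Cyp51 and Insig1 held 23, 20 and 34 CG dinucleotides, the sites at which DNA methylation occurs, against a median of 6 in all windows. Matches describe the sequence only, and no methylation was measured on these arrays.

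Signals are given as quantile-normalised log2 intensities, and changes as DAC/TSA minus control on the log2 scale with the standard error (SE) of the limma fit. A gene was called changed at an adjusted p under 0.01 over all tested probes. Of the 6 measured members 2 were upregulated, Hsd17b7 and Dhcr7, and 1 was downregulated, Insig1, whereas Sqle, Cyp51 and Fdps were not called. These are shares of 33.3% and 16.7%, as compared to 27.0% of all genes called higher and 25.8% called lower, so under quantile normalisation members were called at rates near those of all genes. Under median scaling the same counts of members were called, while 15.3% of all genes were called higher and 9.33% lower. The median change of the members was -0.07, and that of all genes was -0.023. Member by member, however, the changes spanned a range from -0.73 to 1.28.

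**Figure D1:**
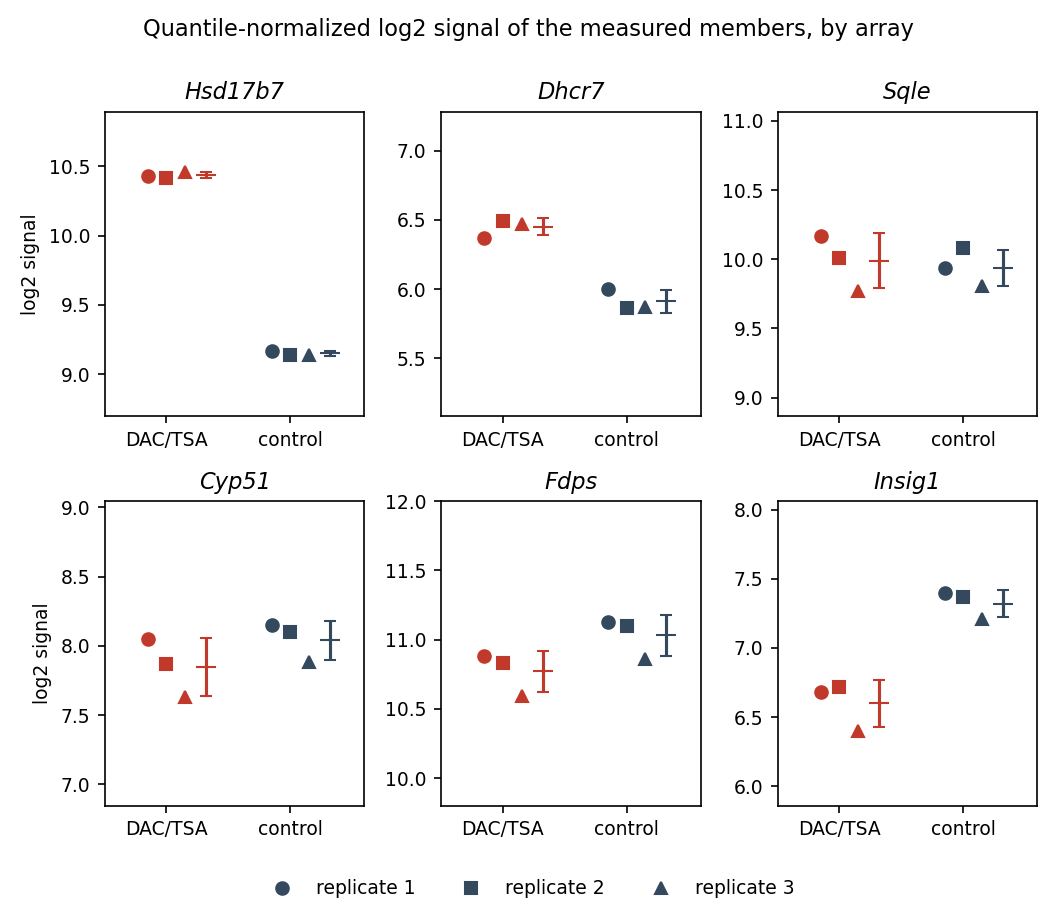
Quantile-normalised log2 signal (vertical axes, each spanning the same number of log2 units) of the brightest probe of each measured member on the 3 DAC/TSA arrays (left, red) and the 3 control arrays (right, blue), with bars for the mean and SD. Hsd17b7 and Dhcr7 are higher and Insig1 is lower on every DAC/TSA array than on any control array, and the groups overlap for Sqle, Cyp51 and Fdps.

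Hsd17b7 encodes a reductase that acts on the keto group left while the methyl groups of lanosterol-derived sterols are removed, and the same enzyme can convert oestrone to oestradiol. Its log2 signal was 10.43, 10.42 and 10.46 on the DAC/TSA arrays and 9.17, 9.14 and 9.14 on the control arrays. The groups were 1.25 apart at their closest, while the SD within each group was 0.02. Hsd17b7 was thus 2.43-fold higher with DAC/TSA (log2 change 1.28 ± 0.082, SE, n = 3 per group, limma adjusted p = 8.07e-08), and 96.3% of the genes tested had a smaller or more negative change. A second, dim probe of Hsd17b7 was detected on all 3 DAC/TSA arrays and on no control array. It read 6.45, 6.30 and 6.26 with DAC/TSA against 5.53, 5.65 and 5.64 in control cells, which is at least 1.46-fold higher (limma adjusted p = 2.21e-05). This dim probe entered the test only through the DAC/TSA arrays, so its direction was bound to follow. It is therefore no separate support for the rise.

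Dhcr7, the reductase that turns 7-dehydrocholesterol into cholesterol in the last step of one branch, also rose. Its only probe read 6.37, 6.49 and 6.47 with DAC/TSA and 6.00, 5.86 and 5.87 in control cells. The groups were 0.37 apart at their closest, and the change was 0.54 ± 0.088 (SE, n = 3 per group, 1.45-fold, limma adjusted p = 0.000205). This probe was dim. It was detected on all 6 arrays, but only 19.4% of genes were dimmer and the lowest detected signals of the arrays lay between 5.67 and 5.85. With a background correction fitted to the detection p-values the change was 0.82.

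The enzymes between farnesyl diphosphate and lanosterol demethylation showed smaller differences. Sqle, the squalene epoxidase that performs the first oxygenation and can limit the rate of the pathway, read 10.17, 10.01 and 9.77 with DAC/TSA against 9.94, 10.08 and 9.81 in control cells. The groups overlapped, and the change of 0.04 had a 95% confidence interval from -0.21 to 0.29 (limma adjusted p = 0.77). Its second probe gave 0.02 ± 0.13. Cyp51, the demethylase that opens the conversion of lanosterol, read 8.05, 7.87 and 7.63 with DAC/TSA against 8.15, 8.10 and 7.88 in control cells. These values overlapped too, with a change of -0.19 and an interval from -0.44 to 0.06 (limma adjusted p = 0.184). The intervals leave room for modest changes of either gene, and neither was called under any of 14 alternative processings.

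Fdps, which makes the farnesyl diphosphate from which squalene and the isoprenoids branch off, was the brightest member, above 91% of genes. It read 10.88, 10.83 and 10.59 with DAC/TSA and 11.13, 11.10 and 10.86 in control cells. Only the highest DAC/TSA value and the lowest control value overlapped, by 0.02. The change of -0.26 ± 0.11 (SE, n = 3 per group) was not called (limma adjusted p = 0.0558), but with the replicate numbers as a block it was -0.26 ± 0.072 and passed (limma adjusted p = 0.00511). A dim probe of Fdps was detected on no DAC/TSA array and on all 3 control arrays, with 5.42, 5.35 and 5.58 in treated and 6.19, 6.03 and 6.03 in control cells. This is at least 1.30-fold lower with DAC/TSA (limma adjusted p = 0.000106), and the mean of both probes fell by 0.45 (limma adjusted p = 0.000714). The dim probe entered the test only through the control arrays, so its direction was bound to follow. The mean of both probes rests partly on it.

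Array replicate 3 of each group gave the lowest quantile-normalised value for Sqle, Cyp51, Fdps and Insig1. With the arrays scaled to a common median instead, replicate 3 was no longer the lowest of either group for Sqle, where the arrays read 10.07, 9.89 and 10.03 with DAC/TSA and 9.80, 9.94 and 10.06 in control cells, or for Fdps, with 10.79, 10.71 and 10.87 against 10.97, 10.94 and 11.10. The low replicate 3 of these genes therefore depends on the scaling. Direction and call of the 6 members were the same under both scalings.

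Insig1 fell on all 3 of its probes. The brightest read 6.68, 6.72 and 6.40 with DAC/TSA and 7.40, 7.37 and 7.21 in control cells, so that the groups were 0.49 apart. It was 1.65-fold lower (log2 change -0.73 ± 0.11, SE, n = 3 per group, limma adjusted p = 7.62e-05). The second probe read 5.96, 5.96 and 6.02 against 6.87, 6.69 and 6.75 and fell 1.73-fold, and the third, which was detected on 1 DAC/TSA array and 3 control arrays, fell 1.35-fold. Of the genes tested, 9.32% had a more negative change than Insig1.

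Of the 11 member probes, 3 were called higher, 4 lower and 4 neither, where 22.4% of all tested probes were called higher and 23.4% lower. No member had probes called in opposite directions. The dim probes of Hsd17b7 and Fdps are in these counts. They were detected only in the DAC/TSA and only in the control group, respectively, so their direction was bound to follow. The plot of all member probes shows that probes of a gene shared their sign, and that Fdps was the member whose probes differed in call.

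**Figure D2:**
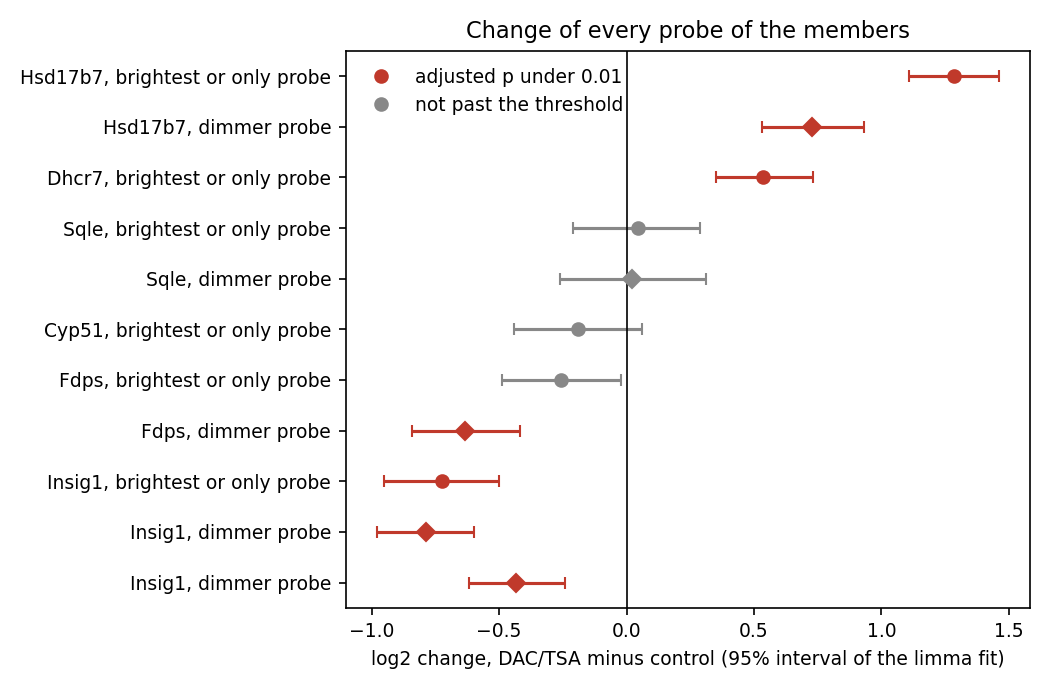
Log2 change, DAC/TSA minus control (horizontal axis), of each of the 11 probes of the measured members, with the 95% confidence interval of the limma fit. Circles are the brightest or only probe of a gene and diamonds its dimmer probes. Both Hsd17b7 probes and the Dhcr7 probe lie above 0, both Fdps probes and all 3 Insig1 probes below it, and the intervals of Sqle and Cyp51 span 0.

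Whether Hsd17b7 moved apart from the other SREBP2 targets was tested on each array as its log2 signal minus that of another member. The 5 possible pairs were compared, each gene by its brightest probe, and in each pair all 3 DAC/TSA arrays exceeded all 3 control arrays. The SE of a pair comes from the spread of these per-array differences within each group, not from the limma fit. Set against Insig1, the per-array difference lay between 3.70 and 4.05 with DAC/TSA and between 1.77 and 1.94 in control cells, and the changes differed by 2.01 ± 0.12 (SE). Set against Fdps it lay between -0.45 and -0.14 with DAC/TSA and between -1.96 and -1.71 in control cells, a difference of 1.54 ± 0.13. Hsd17b7 was thus the dimmer of that pair in both groups, but by less with DAC/TSA.

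The changes of Hsd17b7 and Cyp51 differed by 1.47 ± 0.15, and those of Hsd17b7 and Sqle by 1.24 ± 0.15. The smallest difference, 0.75 ± 0.05, was from Dhcr7, the other member that rose, with 3.93 to 4.06 on DAC/TSA arrays and 3.17 to 3.28 on control arrays. The dim probe of Hsd17b7, not used in the pairs, rose by 0.73 as fitted, and by at least 0.55. The change of Dhcr7 was 0.54. Each pair gave an exact two-sided permutation p of 0.10, also after Benjamini-Hochberg adjustment over the 5 pairs. This is the smallest p that 3 against 3 arrays allow, so none of the differences could pass a threshold of 0.05 in this test. The members differ in brightness, and with background correction the changes were 1.32 for Hsd17b7, 0.82 for Dhcr7 and -0.91 for Insig1.

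Relative to the control mean of each gene, Hsd17b7 stood at 1.28, 1.27 and 1.30 on the DAC/TSA arrays, whereas the median of the other 5 measured members stood at 0.01, -0.17 and -0.41. The gap between the change of Hsd17b7 and the median change of the others was 1.47. With the mean of a gene's probes in place of the brightest it was 1.20. The genes with the profile most like that of Hsd17b7, by root mean square difference of these centred values over the 6 arrays, were Pde1b (0.032), Tmbim4 (0.0341), Itga3 (0.045), Crhbp (0.0474) and Camta2 (0.0527), with log2 changes between 1.24 and 1.29. These genes were picked for their likeness, which fixes the size of their changes.

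The proteins that control SREBP processing were followed next. Of 11 listed genes 9 were measured, of which 2 were called higher and 2 lower, with a median change of 0.01. These are shares of 22.2% each, against 27.0% of all genes called higher and 25.8% called lower. Insig2, the second anchor of Scap and not itself a typical SREBP target, rose 2.42-fold. It read 9.79, 9.82 and 9.65 with DAC/TSA and 8.54, 8.50 and 8.40 in control cells (log2 change 1.28 ± 0.090, SE, n = 3 per group, limma adjusted p = 1.86e-07), and its dimmer probe was also called (limma adjusted p = 1.16e-06). The 2 Insig genes were thus called in opposite directions.

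Srebf2, which encodes the SREBP of the cholesterol pathway, was 1.56-fold lower. It read 7.64, 7.72 and 7.75 with DAC/TSA and 8.43, 8.25 and 8.34 in control cells (log2 change -0.64 ± 0.088, SE, n = 3 per group, limma adjusted p = 5.11e-05), and its other probe was called lower too (limma adjusted p = 0.000297). Under median scaling the change was -0.59 and was not called (limma adjusted p = 0.0334). Srebf1, whose products mainly drive fatty acid genes, was close to the limit of detection, with 5.90, 5.91 and 5.92 on DAC/TSA arrays and 5.68, 5.79 and 5.84 on control arrays, of which 2 detected it, and was not called (0.14 ± 0.085).

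Scap read 6.27, 6.36 and 6.61 with DAC/TSA and 6.74, 6.77 and 6.68 in control cells, a change of -0.32 ± 0.10 that was not called (limma adjusted p = 0.0171). Its other probe fell by 0.73 (limma adjusted p = 0.000102), and the brightest probe was called with the replicate block (limma adjusted p = 0.00396) or without DAC/TSA replicate 3 (limma adjusted p = 0.00186). Rnf145, a ubiquitin ligase reported to act on Scap, was 1.63-fold lower, and this call was lost under median scaling (limma adjusted p = 0.0818). Erlin2, an endoplasmic reticulum protein of the complex that restrains SREBP, was 1.23-fold higher, a call that was lost on leaving out any single array (limma adjusted p = 0.0139 to 0.0307). With the replicate block, 4 genes of this list were called lower.

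**Figure D3:**
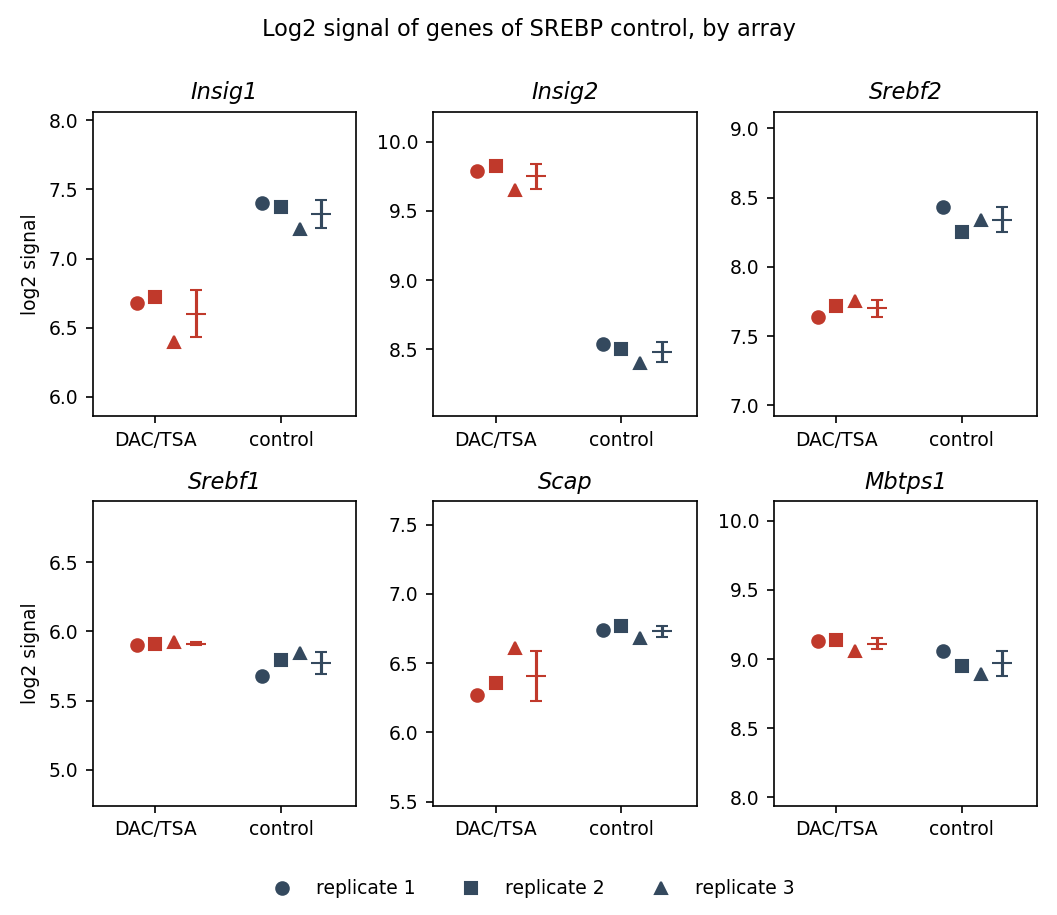
Quantile-normalised log2 signal (vertical axes, each spanning the same number of log2 units) of 6 genes of SREBP control on the 3 DAC/TSA arrays (left, red) and the 3 control arrays (right, blue), with bars for the mean and SD. Insig2 is higher and Insig1 and Srebf2 are lower on every DAC/TSA array than on any control array, and the changes of Srebf1, Scap and Mbtps1 were not called.

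Of 14 other enzymes of cholesterol synthesis 8 were measured. Lbr was called lower, Ebp and Pmvk were called higher, and the median change was 0.00. Thus 25% of the measured genes were called higher and 12.5% lower, against 27.0% and 25.8% of all genes. Lbr, a protein of the inner nuclear membrane with sterol reductase activity, read 9.06, 9.10 and 9.02 with DAC/TSA and 10.05, 9.93 and 10.10 in control cells (1.95-fold lower, limma adjusted p = 1.46e-06). Its dim probe changed by -0.18 ± 0.094 and was not called (limma adjusted p = 0.13). The mean of both Lbr probes fell by 0.57 (limma adjusted p = 9.89e-05). Ebp, the sterol isomerase, was 1.34-fold higher, and the call was lost without DAC/TSA replicate 2 or 3 or control replicate 1 or 2 (limma adjusted p = 0.017 to 0.0288). Pmvk, phosphomevalonate kinase, was 1.37-fold higher, and the call was lost without DAC/TSA replicate 1 or 2 or control replicate 1 (limma adjusted p = 0.0161 to 0.0429). Both calls were also lost under median scaling and with background correction.

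Msmo1 and Nsdhl encode the enzymes that act just before Hsd17b7 in the removal of the same methyl groups, and they were singled out after their values had been seen. Msmo1 read 8.77, 8.45 and 8.80 with DAC/TSA and 9.04, 8.97 and 9.07 in control cells (-0.35 ± 0.11, limma adjusted p = 0.0119). Nsdhl read 6.87, 6.89 and 6.48 with DAC/TSA and 7.09, 7.18 and 6.80 in control cells (-0.28 ± 0.13, limma adjusted p = 0.0793). Neither was called in this fit, but with the replicate block both were called lower (limma adjusted p = 0.000882 for Msmo1 and 0.00309 for Nsdhl). The genes of the list called lower with the block were thus 3, these and Lbr.

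Genes of cholesterol uptake and trafficking were measured for 5 of 10, and 1 (20%, against 27.0% of all genes) was called higher. This was Lipa, the lysosomal acid lipase that frees cholesterol from the esters taken up with lipoproteins. It read 7.83, 7.78 and 8.43 with DAC/TSA and 6.38, 6.33 and 6.67 in control cells (2.95-fold higher, limma adjusted p = 3.57e-06). With the replicate block, 2 genes of this list were called lower, and without control replicate 3 there was 1.

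Of 11 genes of efflux, esterification and oxysterol formation 4 were measured, and all 4 were called, 3 higher and 1 lower. Over all genes tested 27.0% were called higher and 25.8% lower. The median change of the list was 0.82, or 0.73 with the 2 genes undetected in one group, Nr1h3 and Apoe, set at their bounds. Cyp27a1, which makes 27-hydroxycholesterol, was called higher by all 3 of its probes, by different amounts. Its brightest probe was detected on no control array and was at least 2.53-fold higher with DAC/TSA (limma adjusted p = 1.11e-07), while a probe detected on all 6 arrays was 1.75-fold higher (limma adjusted p = 1.9e-05) and the last, detected on 1 control array, 1.91-fold. Nr1h3, the oxysterol receptor LXRα, was detected on no control array and was at least 1.66-fold higher (limma adjusted p = 2.51e-05). Nceh1, which hydrolyses cholesteryl esters, was 1.66-fold higher (limma adjusted p = 2.41e-05). Apoe, a carrier of cholesterol out of cells, was detected on no DAC/TSA array and was at least 1.43-fold lower (limma adjusted p = 0.00149), a call lost under median scaling (limma adjusted p = 0.0124). Genes undetected in one group could be named here only if they were detected in the other, so the direction of such genes was bound to follow. The counts of this list include them.

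Fatty acid synthesis, which SREBP1 mainly controls, had 11 of 14 genes measured, with 2 called higher, 4 lower and a median of 0.06. The shares were 18.2% higher and 36.4% lower, against 27.0% and 25.8% of all genes. Acss2, which makes acetyl-CoA from acetate, had the largest change of any gene on these lists. It read 9.38, 9.47 and 9.49 with DAC/TSA and 6.30, 6.32 and 6.20 in control cells (9.03-fold higher, log2 change 3.17 ± 0.086, SE, n = 3 per group, limma adjusted p = 9.56e-11). Acacb, an acetyl-CoA carboxylase, was detected on no control array and was at least 1.41-fold higher (limma adjusted p = 8.54e-05). As Acacb entered the test only through the DAC/TSA arrays, its direction was bound to follow. Mid1ip1, a regulator of acetyl-CoA carboxylase, was 2.11-fold lower (limma adjusted p = 5.19e-06).

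Elovl6, Fads1 and Acly fell by less (1.40-fold, 1.28-fold and 1.27-fold lower). Elovl6, a fatty acid elongase, lost its call without control replicate 1 or 2 (limma adjusted p = 0.0119 and 0.0121). Fads1, a desaturase, lost it without DAC/TSA replicate 2 or control replicate 1 or 2 (limma adjusted p = 0.0118 to 0.0221). Acly, the citrate lyase that supplies cytosolic acetyl-CoA, lost it without DAC/TSA replicate 1 or 2 or control replicate 1 or 2 (limma adjusted p = 0.012 to 0.0215). All 3 calls were also lost under median scaling. With the replicate block, 5 genes of the list were called higher.

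The isoprenoid branches that leave the pathway after farnesyl diphosphate had 9 of 12 genes measured, with 2 called higher, 2 lower and a median of -0.01. Each share was 22.2%, against 27.0% of all genes called higher and 25.8% called lower. Coq2, which attaches the side chain of ubiquinone, rose by 0.97 and Nus1, a subunit of the enzyme for dolichol synthesis, by 0.56 on the log2 scale. Pggt1b, a subunit of geranylgeranyl transferase, changed by -0.95, and Icmt, which methylates prenylated proteins, by -0.54. All 4 calls were lost under median scaling (limma adjusted p = 0.0305, 0.0515, 0.0183 and 0.0102), and that of Icmt also with the mean of its probes, which was -0.19 (limma adjusted p = 0.0961). Dimmer probes of Fnta and Zmpste24 were called, lower and higher (limma adjusted p = 0.00191 and 0.000238), where their brightest probes were not. In the 17-beta-hydroxysteroid dehydrogenase family, to which Hsd17b7 belongs by name, 4 of 11 other genes were measured. Of these 25% were called higher, against 27.0% of all genes. Hsd17b11, a dehydrogenase of lipid droplets, was 1.68-fold higher (limma adjusted p = 0.000191), and the other 3 were not called by their brightest probes. A dim probe of Hsd17b12 was called lower (-0.64 ± 0.085, limma adjusted p = 3.69e-05), whereas its brightest probe gave 0.18 ± 0.14. Hsd17b12, Fnta and Zmpste24 are named because their probes differed, after the values had been seen.

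**Figure D4:**
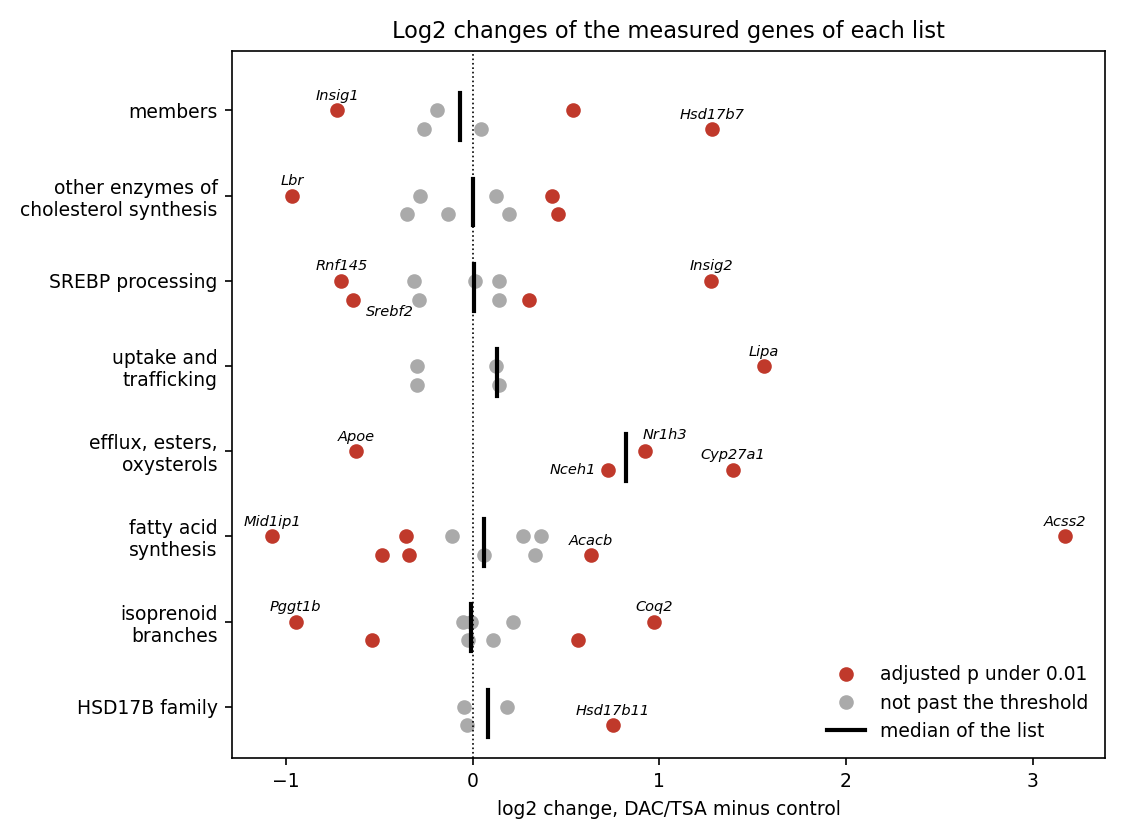
Log2 change, DAC/TSA minus control as fitted, without bounds (horizontal axis), of the measured genes of the 8 members (top row) and of 7 lists of related genes. Red points passed an adjusted p of 0.01 and grey points did not, bars mark the median of each list, and called genes with changes over 0.6 in size are named. Except for efflux, esters and oxysterols, whose median is 0.82, every list has a median between -0.07 and 0.13. The named genes lie on both sides of 0, with the largest changes, those of Acss2, Lipa, Cyp27a1, Hsd17b7 and Insig2, above it.

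Each array detected 13227 to 15056 of its 45281 probes. Arrays of the same group correlated at 0.992 to 0.997, and arrays of different groups at 0.944 to 0.950. Of 4 measured mesenchymal markers 1 was called, higher, and of 4 epithelial markers 2 were called, higher. The summed signal of the mesenchymal markers was 6350 to 6410 with DAC/TSA against 3520 to 3980 in control cells. The called marker was Fn1, with a log2 change of 2.26, while Vim, Sparc and S100a4 gave 0.27, 0.29 and -0.02. For the epithelial markers the sum was 2520 to 3150 with DAC/TSA against 2270 to 3000. Of 5 measured leukocyte markers 4 were called higher and 1 lower, with a summed signal of 433 to 444 against 215 to 237. Over all genes 27.0% were called higher and 25.8% lower. Lyz1, Lyz2, Cd52 and Laptm5 were detected on no control array, and Cd79b on no DAC/TSA array. Each of these genes entered the test only through the group that detected it, so its direction was bound to follow. The control sum is mostly signal of undetected probes. The part of cells with any of these markers in the values of the members was not tested.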

How the data were processed

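Total RNA of 3 DAC/TSA and 3 control cultures of RVP3 cells was hybridised to Illumina Mouse WG-6 arrays. The authors deposited linear probe intensities, extracted with BeadStudio, and beside each intensity its detection p-value. They also deposited a table of log2 values for 15131 probes, made by quantile normalisation. The submitters' processing notes name limma. Here intensities of all 45281 probes were quantile-normalised as log2, which matched the deposited log2 values within 5e-14, and probes with a detection p-value of 0.01 or less on at least 1 array (16760) entered a two-sided test by lmFit and eBayes (limma 3.58.1, R 4.3.3, package data.table version 1.17.8), without covariates and with Benjamini-Hochberg adjustment over these probes. All columns of sample values were used.

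Probes of the log2 values were named through the platform's annotation, which can be old. Of these, 13126 carried a single symbol (13113 matched a current identifier), 6 had several and were left unnamed, and 1999 had none. Among all 16760 tested probes, 3634 were without a name. Each gene was represented by its brightest probe, by mean log2 signal over the arrays. Where a group's arrays all failed to detect a probe, only a bound is known, and folds against it are written "at least". There the dimmer group's mean was taken with each array's value set to the lowest signal of any detected probe, unless the probe itself was higher. Promoter windows are RefSeq's. There was no entry for Fdps or Sqle. Slides and scan dates are not given in the sources used here, and 3 arrays per group limit the precision.

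The members and gene lists were chosen with earlier results of these data known. Named genes were all members, up to 5 called genes of each list by size of change, the measured control genes of the pathway, and the 5 genes closest to Hsd17b7. Deviations of arrays with the same replicate number correlated between the groups at 0.34, 0.24 and 0.65, so a fit with the number as a block was run beside the unblocked one. Whether same-numbered cultures shared a day is not stated in the labels, and DAC/TSA replicate 1 correlated with control replicate 2 at 0.37. Alternatives were median scaling, background correction (neqc), a stricter detection filter and none, the deposited log2 table, the replicate block, leaving out each array, the mean of a gene's probes, and an adjusted p of 0.05.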

Additional observations from a re-analysis of the deposited data

How the results depend on the processing

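Across 14 alternative processings the log2 change of Hsd17b7 lay between 1.01 and 1.32, that of Dhcr7 between 0.51 and 0.82 and that of Insig1 between -0.91 and -0.63, and all 3 kept their call. Sqle (-0.05 to 0.15) and Cyp51 (-0.29 to -0.08) were called in none. Fdps (-0.45 to -0.17) was called lower with the replicate block and with the mean of a gene's probes, which each gave 2 members lower. That mean includes the dim Fdps probe, which only control arrays detected. The replicate block changed no other call of a member. The gap between Hsd17b7 and the median of the other measured members was 1.20 with the mean of a gene's probes. Median scaling left 1335 genes higher and 815 lower, so 62.1% of called genes were higher, against 51.1% of 2358 higher and 2254 lower under quantile normalisation, and the cause was not tested. Leaving out single arrays gave 1 member lower and 2 higher each time, 2011 to 2384 genes higher, 1845 to 2317 lower, and a gap of 1.35 to 1.57.

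Of the values of the other named genes under these alternatives, 305 kept their call, 4 gained and 41 lost it. Only 3 arrays per group were available, members such as Dhcr7 and the third Insig1 probe lay close to background, and 2 of the 8 listed genes were not analysed here.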
